A study of Homo sapiens with 6 samples.

Results

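The genes of 7 solute carrier families that move amino acids and related small molecules across membranes were examined in melanoma cells carrying an HDAC8 expression vector or an empty vector. Members were the protein-coding genes of the expression table whose symbol begins with SLC1A, SLC3A, SLC6A, SLC7A, SLC36A, SLC38A or SLC43A, which gave 60 of the 60504 genes. By symbol alone the rule also takes in SLC7A6OS, which lies on the opposite strand at SLC7A6 and is not a carrier, and SLC6 carriers of neurotransmitters, creatine and taurine. SLC43A3, a carrier of purine bases, is included in the same way.

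RNA-seq was performed on WM164, a human melanoma cell line with the BRAF V600E mutation. The EV group had 3 libraries from cells with an empty expression vector, and the HDAC8 group had 3 libraries from cells with an HDAC8 expression vector. HDAC8 is a class I histone deacetylase. The study asked how raised HDAC8 reshapes transcription in melanoma cells. Per its methods the cells were transfected with plasmids by lipofection and kept in hygromycin. How many clones make up each line, and whether the libraries of a group came from separate cultures, is not given in the sources used here. The p-values below therefore measure the spread between these libraries, which may be technical.

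Total counts ran from 34741083 to 42041462 per library and overlapped between the groups. Mitochondrially encoded transcripts took 9.66% to 12.8% of the counts in EV libraries and 4.46% to 7.94% in HDAC8 libraries. In a fit without those genes the log2 fold changes of SLC7A11 and SLC38A1 were -1.46 and 2.40, as in the main fit. That fit only drops the mitochondrial genes themselves. What lay behind their lower share in HDAC8 libraries was not tested. HDAC8 itself had 383.8, 404.4 and 478.8 normalized counts in EV and 484.8, 445.5 and 473.7 in HDAC8 libraries, which overlapped (log2 fold change 0.15, SE 0.28, adjusted p = 0.856 by DESeq2). Its transcript thus gives no check of the labels, and the HDAC8 libraries named below are those so labelled. Of 8 melanocytic markers, 7 were above 3 counts in every library, and their summed level was 244961 to 328761 normalized counts in EV and 137044 to 182218 in HDAC8 libraries, with 5 of the 8 called lower (S100B among them in 7 of 14 alternative fits). Most of this sum was PMEL (169800 to 247772 in EV libraries), and the markers differed. MLANA had a log2 fold change of -4.84, while TYRP1 (-2.76), MITF (-0.20) and SOX10 (-0.33) were not called. Markers of other cell types were uneven. Some were sparse, while LUM (1054 to 2662 normalized counts across libraries) and KRT18 (1702 to 3289) had reads in every library. DCN, CDH5 and EPCAM had no count in any library. The fibroblast list summed to 2478.7 to 2894 normalized counts in EV and 1463 to 2423 in HDAC8 libraries (PDGFRA called higher, and in 6 of 14 alternative fits), the endothelial list to 97.5 to 203 in EV and at most 263 (none of 5 called), and the epithelial list to 2125 to 2758 and 3021 to 4073 (none of 6 called). The leukocyte list summed to 2301 to 3302 against 4273 to 6165, with CD68, called higher, at 2286.0 to 3302 and 4192 to 6114.5. CD3E, its other called gene, had no count in EV libraries and 78.7, 91.1 and 50.1 normalized counts in HDAC8 libraries. The part of these markers in the results was not tested.

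Amino acid carriers work in functional classes. SLC7 light subunits pair with a heavy subunit of the SLC3 family and mostly exchange one amino acid for another, so that they depend on amino acids already inside the cell. Sodium-coupled carriers of the SLC1, SLC6 and SLC38 families concentrate glutamine, alanine, glycine and other small amino acids, and several SLC36 and SLC38 proteins sit in the lysosome membrane, where amino acids are passed to the cytosol and sensed by mTORC1. In melanocytes, tyrosine and cystine taken up by such carriers feed the synthesis of dark and red pigment.

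SLC38A1, which encodes the glutamine carrier SNAT1, rose 5.27-fold in HDAC8 libraries. Among exchange carriers, SLC7A11 fell 2.75-fold and SLC7A5 1.67-fold, while SLC7A6, SLC7A8 and the glutamine carrier SLC1A5 were not called. Of the other carriers, SLC6A15 fell 1.87-fold, SLC38A7 1.69-fold and SLC7A1 1.6-fold, along with the weakly expressed SLC6A9. The heavy subunit SLC3A2 was not called. In all, 1 member was called higher and 6 were called lower, where a call needs an adjusted p under 0.05 by DESeq2 and a log2 fold change of 0.58 or more, up or down. In bulk RNA, fewer cells that express a gene and less RNA of it per cell cannot be told apart.

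Of the 60 members, 13 had no count in any library and 17 had fewer than 10 counts in total, those 13 included. The remaining 43 were tested, and 38 received an adjusted p. Of all genes in the table, 5.57% of those with an adjusted p were called higher and 5.44% lower. Among these 38 members the shares were 2.63% and 15.8%. Without EV 2 the count of members called lower was 3 instead of 6. Members with a mean of at least 50 normalized counts numbered 27, and all 7 called members were among them. For genes at that level across the table, 7.38% were called higher and 6.64% lower. The log2 fold change was below 0 in 23 of the 38 members and above 0 in 15. Its median was -0.27 over the 38, against 0.00 over all genes with an adjusted p. Groups did not overlap in 17 of the 38 members, against 29.1% of all genes with an adjusted p. They did not overlap in 15 of the 27 members with a mean of at least 50, against 35.0% of all genes at that level. When the fold change minimum was left out, 9 of the 38 members passed the test in the lower and 1 in the higher direction. By that rule 13.0% of the 21021 genes with an adjusted p passed, 1342 of them lower and 1394 higher.

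**Figure D1:**
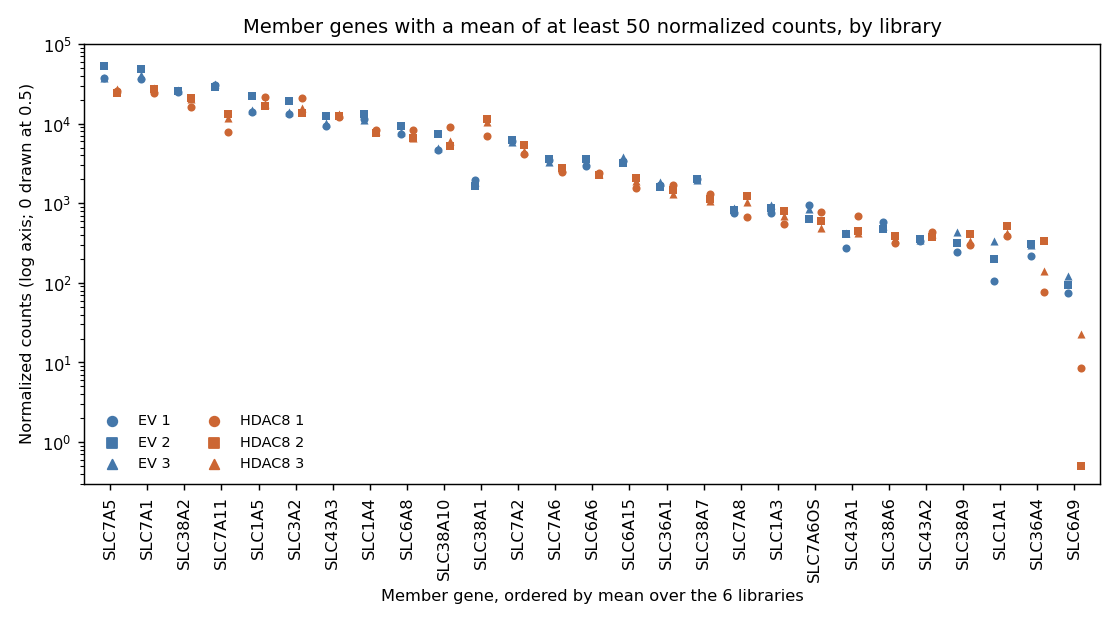
Normalized counts (log axis, with 0 drawn at 0.5) of the 27 members with a mean of at least 50, ordered from left to right by mean, with EV libraries in blue and HDAC8 libraries in orange and a marker shape for each replicate number. SLC38A1 stands above its EV values in all 3 HDAC8 libraries, and SLC7A11 stands below them.

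**Figure D2:**
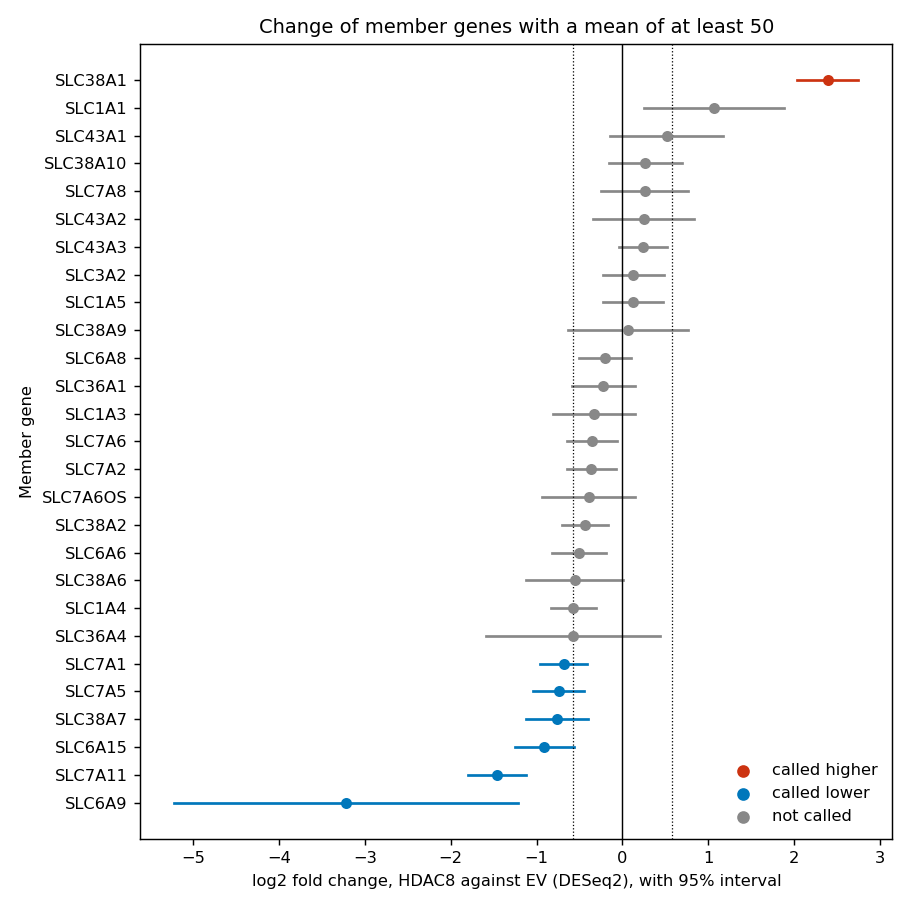
DESeq2 log2 fold change of HDAC8 against EV for the same 27 members, with 95% intervals as bars and dotted lines at the minimum of 0.58 in either direction. SLC38A1 is the only member called higher, SLC7A11 and 5 others are called lower, and the interval of SLC6A9 is the widest among the called members.

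Sodium-coupled carriers of the SLC38 family were considered first, since they hold the member that rose. SLC38A1 (ENSG00000111371, GRCh38 chromosome 12, 46183063 to 46270017, minus strand) had 1959.8, 1664.3 and 1848.1 normalized counts in EV and 7069.8, 11284.1 and 10470.3 in HDAC8 libraries. All HDAC8 libraries lay well above all EV libraries, and HDAC8 1 was the lowest of them. Its mean was 1824 ± 149 in EV and 9608 ± 2236 in HDAC8 libraries (SD, n = 3), a log2 fold change of 2.40 with SE 0.18 (adjusted p = 4.52e-37 by DESeq2). SLC38A2, which encodes the related carrier SNAT2 and is itself induced by amino acid shortage, lies 88.2 kb away from SLC38A1 on the same strand (ENSG00000134294, chromosome 12, 46358188 to 46372773). It had 25064.7, 25597.2 and 26387.6 normalized counts in EV and 16025.1, 20789.2 and 20245.8 in HDAC8 libraries. The groups did not overlap and the adjusted p was 0.0153 by DESeq2, but its log2 fold change of -0.43 (SE 0.14) was under the minimum. The next neighbour, SLC38A4, had 31.5 normalized counts in EV 3 and no count elsewhere.

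SLC38A1 and SLC38A2 were then set side by side per kb of transcript, using the canonical transcript of each gene, since longer transcripts collect more reads. The ratio of SLC38A1 to SLC38A2 was 0.0463, 0.0385 and 0.0415 in EV and 0.261, 0.321 and 0.306 in HDAC8 libraries, 7.04-fold higher on average. SLC38A1 was higher and SLC38A2 lower without overlap, so the groups had to be apart in this ratio. The exact permutation p of 0.1 (two-sided), the smallest that 3 against 3 libraries can give, adds nothing to that. SLC38A2 remained the more abundant of the pair in every library. The sum of both levels was 5581.5 ± 135 normalized counts per kb in EV and 5153 ± 819 in HDAC8 libraries (SD, n = 3, exact permutation p = 0.6).

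The other SLC38 members were lower or were not called. SLC38A7, which exports glutamine from the lysosome (ENSG00000103042, chromosome 16, 58665109 to 58684770, minus strand), had 1988.1, 2010.8 and 1954.5 normalized counts in EV and 1312.5, 1134.8 and 1066.1 in HDAC8 libraries. The 3 EV values lay close together and above every HDAC8 value. Its log2 fold change was -0.76 with SE 0.18 (adjusted p = 5.82e-04 by DESeq2). SLC38A9, the lysosomal arginine sensor upstream of mTORC1, had 333 ± 100.7 and 350 ± 57.9 (SD, n = 3), with a 95% interval of the log2 fold change from -0.63 to 0.77. SLC38A10 and SLC38A6 were not called (log2 fold changes of 0.26 and -0.55), and the remaining members of the family were at or under 31.5 normalized counts in every library. SLC38A11 was among these, with 21.0, 4.7 and 23.6 normalized counts in EV and no count in HDAC8 libraries, and it was not called (DESeq2 adjusted p = 0.0561).

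Heteromeric carriers were examined next. SLC7A11 encodes xCT, the light subunit that brings in cystine in exchange for glutamate, and cystine is the source of cysteine for glutathione. SLC7A11 (ENSG00000151012, chromosome 4, 138164097 to 138242349, minus strand) had 30942.1, 28424.3 and 31031.5 normalized counts in EV and 7799.2, 13233.0 and 11817.3 in HDAC8 libraries. No HDAC8 library came near the lowest EV value, and HDAC8 1 was again the lowest. The fall was 2.75-fold (log2 fold change -1.46, SE 0.17, adjusted p = 5.90e-15 by DESeq2). HDAC8 1 also had the lowest share of mitochondrial transcripts (4.46%). Without that library the log2 fold changes of SLC7A11 and SLC38A1 were -1.27 and 2.57.

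SLC7A5 encodes LAT1, the carrier of leucine, tyrosine and other large neutral amino acids. SLC7A5 (ENSG00000103257, chromosome 16, 87830023 to 87869507, minus strand) had 37694.1, 53054.9 and 37813.1 normalized counts in EV and 25314.7, 24495.6 and 26947.2 in HDAC8 libraries. The groups did not overlap, and EV 2 stood above the other EV libraries. The log2 fold change was -0.74 with SE 0.15 (adjusted p = 2.66e-05 by DESeq2), and without EV 2 it was -0.56 (DESeq2 adjusted p = 3.99e-04), under the minimum for a call. Reads of SLC7A5 can be shared with near-identical pseudogenes, of which SLC7A5P2 and SLC7A5P1 had means of 324.3 and 175.6 normalized counts. SLC7A6 and SLC7A8, which encode other light subunits for neutral and cationic amino acids, were not called, with log2 fold changes of -0.35 and 0.26. SLC7A6OS overlaps SLC7A6 on the opposite strand, and whether counting used strand is not given in the sources used here.

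SLC3A2 encodes 4F2hc, the heavy subunit shared by SLC7A5, SLC7A11 and other light subunits, which brings them to the cell surface. SLC3A2 (ENSG00000168003, chromosome 11, 62856004 to 62888880, plus strand) had 13194.6, 19240.9 and 13832.2 normalized counts in EV and 21146.1, 13768.7 and 15638.4 in HDAC8 libraries. The groups overlapped, with EV 2 and HDAC8 1 the highest of their groups. Its log2 fold change was 0.13, with a 95% interval from -0.23 to 0.49. The other heavy subunit gene, SLC3A1, had 45.2 ± 25.7 and 39.1 ± 47.6 normalized counts (SD, n = 3).

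Light and heavy subunits were compared within each library, per kb of transcript. The ratio of SLC7A11 to SLC3A2 was 0.458, 0.289 and 0.438 in EV and 0.0721, 0.188 and 0.148 in HDAC8 libraries, 2.91-fold lower on average. The ratio of SLC7A5 to SLC3A2 was 1.18, 1.14 and 1.13 in EV and 0.495, 0.736 and 0.713 in HDAC8 libraries, 1.78-fold lower on average. EV libraries agreed closely in the latter ratio although EV 2 stood apart in both genes. For the 5 detected light subunits that pair with SLC3A2, the ratio of their sum to SLC3A2 was 1.64 ± 0.124 in EV and 0.864 ± 0.216 in HDAC8 libraries (SD, n = 3). The groups were apart in each of these 3 ratios, with an exact permutation p of 0.1 (two-sided), which again is the smallest possible. These ratios concern transcripts, and the protein of either subunit was not measured here.

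**Figure D3:**
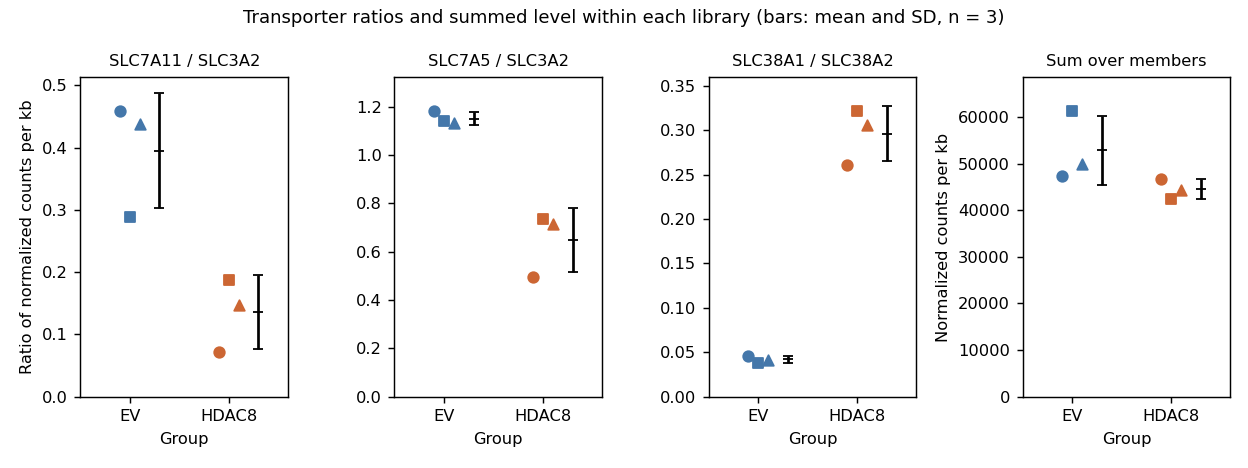
Ratio of SLC7A11 to SLC3A2, of SLC7A5 to SLC3A2 and of SLC38A1 to SLC38A2, and the sum over all 60 members, as normalized counts per kb in each library (points, shapes as replicate numbers) with the mean and SD of each group (bars, n = 3). Both light subunits are lower relative to SLC3A2 in HDAC8 libraries, and SLC38A1 is higher relative to SLC38A2 (0.296 against 0.0421 on average).

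Of the 5 cationic SLC7 members, 1 was called lower. SLC7A1 encodes CAT1, which takes up arginine and lysine. SLC7A1 (ENSG00000139514, chromosome 13, 29509414 to 29595688, minus strand) had 36375.0, 48794.3 and 41247.2 normalized counts in EV and 24032.0, 27115.4 and 27649.6 in HDAC8 libraries. No HDAC8 value reached the lowest EV value. The log2 fold change was -0.68 with SE 0.14 (adjusted p = 3.38e-05 by DESeq2), and -0.57 without EV 2 (DESeq2 adjusted p = 0.00134), under the minimum for a call. SLC7A2, the related CAT2, had 6053 ± 218 and 4715 ± 656 normalized counts (SD, n = 3) and was not called (log2 fold change -0.36, DESeq2 adjusted p = 0.0963). Of the other cationic members, SLC7A3 had no count in any library, and SLC7A4 and SLC7A14 were at or under 23.1 normalized counts.

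Promoter windows are shown for SLC38A1, which rose, for SLC7A5 and SLC7A1, which fell by like amounts, and for SLC3A2, which was not called. Each window is the 250 bases before a RefSeq start (GRCh38.p14), written 5′ to 3′ on the strand of the gene, and a gene with several windows is shown at the one nearest to its canonical start in GENCODE. SLC38A1 is at chr12:46267988-46268237 (minus strand), 1056 bases downstream of that canonical start. SLC7A5 is at chr16:87869508-87869757 (minus strand), SLC7A1 at chr13:29595689-29595938 (minus strand) and SLC3A2 at chr11:62880646-62880895 (plus strand), and these 3 end at the canonical start. Capitals mark matches to any of 4 motifs, searched on both strands: TGATGNAA (the element bound by ATF4), TGANTCA (AP-1), CATGTG and CACGTG (E-boxes, the sites of MITF and related factors).
SLC38A1: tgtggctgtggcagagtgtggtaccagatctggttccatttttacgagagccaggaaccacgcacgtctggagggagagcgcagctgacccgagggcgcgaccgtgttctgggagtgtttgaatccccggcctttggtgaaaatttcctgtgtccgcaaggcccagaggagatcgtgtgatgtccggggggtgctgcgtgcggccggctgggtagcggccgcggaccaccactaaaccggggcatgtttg
SLC7A5: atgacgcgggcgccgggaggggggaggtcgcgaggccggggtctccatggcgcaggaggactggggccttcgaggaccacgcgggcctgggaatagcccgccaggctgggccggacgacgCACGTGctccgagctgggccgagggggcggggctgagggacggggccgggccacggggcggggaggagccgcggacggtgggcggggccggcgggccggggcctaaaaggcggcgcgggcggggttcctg
SLC7A1: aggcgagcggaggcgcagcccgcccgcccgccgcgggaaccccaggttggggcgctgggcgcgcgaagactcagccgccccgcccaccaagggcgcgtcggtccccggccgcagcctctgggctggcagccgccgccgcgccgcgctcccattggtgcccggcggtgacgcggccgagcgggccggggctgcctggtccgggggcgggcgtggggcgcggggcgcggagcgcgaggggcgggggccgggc
SLC3A2: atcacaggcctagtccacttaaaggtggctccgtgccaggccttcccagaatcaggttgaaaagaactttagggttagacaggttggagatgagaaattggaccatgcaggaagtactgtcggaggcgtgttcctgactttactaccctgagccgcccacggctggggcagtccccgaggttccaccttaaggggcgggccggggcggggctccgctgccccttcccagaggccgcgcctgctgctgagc

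SLC7A5 had a CACGTG at bases -130 to -125 from the start, a motif found in 6.34% of the 35116 windows in the reference. The other 3 windows held no match. Windows were found for 45 of the 60 members, and in the nearest window of each gene TGATGNAA occurred in 0 of these 45, TGANTCA in 3, CATGTG in 4 and CACGTG in 6, against 3.14%, 6.57%, 9.42% and 6.34% of all windows. Among alternative starts, windows of SLC38A1 (2527 bases from the canonical start) and SLC3A2 (803 bases) each held 1 TGANTCA, and that of SLC38A1 also 1 CATGTG. Alternative windows of SLC1A3, SLC36A4, SLC38A9, SLC43A2 and SLC7A8 held TGANTCA too, and those of SLC7A7 held CATGTG. None of these other members was called. TGATGNAA occurred once in a farther window of SLC1A5 (3780 bases) and of SLC1A3 (10018 bases). A match is a description of letters only. No window was found for SLC7A11 or SLC6A15.

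Most carriers of the SLC6 family had few or no reads. Among the 8 classed here as amino acid carriers, SLC6A15 was the only one with a mean of at least 50 normalized counts. It encodes a sodium-coupled carrier of branched-chain amino acids and proline. The glycine carrier SLC6A9, with a mean of 53.7, was classed with the carriers of neurotransmitters instead. SLC6A15 (ENSG00000072041, chromosome 12, 84859491 to 84913629, minus strand) had 3437.3, 3182.8 and 3795.7 normalized counts in EV and 1546.0, 2094.4 and 1918.7 in HDAC8 libraries. The groups were well apart, with a log2 fold change of -0.91 with SE 0.18 (adjusted p = 8.86e-06 by DESeq2). SLC6A9, the glycine carrier GlyT1 (ENSG00000196517, chromosome 1, 43991500 to 44031467, minus strand), had 74.5, 95.3 and 121.2 normalized counts in EV and 8.6, 0.0 and 22.9 in HDAC8 libraries. Its log2 fold change was -3.22 with SE 1.02 (adjusted p = 0.0171 by DESeq2), and it was not called without EV 1, EV 2 or EV 3 (DESeq2 adjusted p = 0.0695, 0.107 and 0.162).

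Carriers of taurine and creatine were the abundant SLC6 members beside SLC6A15. The taurine carrier SLC6A6 had 3303 ± 357 and 2331 ± 78.0 normalized counts (SD, n = 3) in groups that did not overlap, with a log2 fold change of -0.50 (DESeq2 adjusted p = 0.0171) that was under the minimum. The creatine carrier SLC6A8 was not called (log2 fold change -0.20, 95% interval -0.50 to 0.10). SLC6A8 has a near-identical pseudogene, SLC6A10P, with a mean of 14.6 normalized counts. SLC6A3 and SLC6A2, the carriers of dopamine and noradrenaline, had no count in any library, nor had the GABA carrier SLC6A11. The serotonin carrier SLC6A4 had 34.3 ± 4.2 and 30.7 ± 14.0 normalized counts (SD, n = 3). SLC6A12, a carrier of betaine and GABA, had 35.7, 30.8 and 30.5 in EV and 12.0, 0.0 and 0.0 in HDAC8 libraries, and it was not called (DESeq2 adjusted p = 0.267) except without HDAC8 1 and in 1 other alternative fit.

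Members of the SLC1 family include carriers of glutamate and of small neutral amino acids. SLC1A5 encodes ASCT2, an exchanger of glutamine (ENSG00000105281, chromosome 19, 46774883 to 46788594, minus strand), and had 14069.1, 22361.2 and 14920.7 normalized counts in EV and 21513.8, 16453.0 and 17754.3 in HDAC8 libraries. The groups overlapped, with a 95% interval of the log2 fold change from -0.23 to 0.47. Its relative SLC1A4, which encodes ASCT1 for serine, alanine and cysteine, had 11348.0, 13064.8 and 11145.7 in EV and 8259.2, 7629.9 and 8051.7 in HDAC8 libraries. The groups did not overlap and the DESeq2 adjusted p was 2.83e-04, but the log2 fold change of -0.57 (SE 0.13) stopped just short of the minimum of 0.58. SLC1A1, the glutamate and cysteine carrier EAAT3, had 107.0, 198.9 and 331.0 in EV and 390.8, 520.3 and 425.8 in HDAC8 libraries. These groups did not overlap either, and the log2 fold change was 1.07 with SE 0.42 (adjusted p = 0.0726 by DESeq2), a value that passed the test in 5 of 14 alternative fits. The glial glutamate carrier SLC1A3 was not called (log2 fold change -0.33).

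Proton-coupled SLC36 and facilitative SLC43 carriers had no called member. SLC36A1, which exports small amino acids from lysosomes, had 1720.8 ± 116 and 1478 ± 196 normalized counts (SD, n = 3), with a 95% interval of the log2 fold change from -0.59 to 0.15. SLC36A4 varied widely in HDAC8 libraries (184 ± 132 normalized counts, against 274 ± 50 in EV, SD, n = 3). SLC43A1 and SLC43A2, which carry leucine and other neutral amino acids, had log2 fold changes of 0.52 and 0.25, and SLC43A3 had 0.24 (95% interval -0.04 to 0.52).

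Levels were also compared between members, per kb of transcript. The 5 most abundant over the 6 libraries were SLC3A2, SLC7A5, SLC1A5, SLC38A2 and SLC7A1, and together they made up 65.3% ± 2.28 of the summed level in EV and 64.1% ± 1.95 in HDAC8 libraries (SD, n = 3). The summed level over all members was 47438, 61187 and 49813 normalized counts per kb in EV and 46681, 42471 and 44283 in HDAC8 libraries. The lowest EV value and the highest HDAC8 value lay close together (exact permutation p = 0.1, two-sided). Within this sum SLC7A5 took 17.7% ± 1.21 in EV and 12.6% ± 0.727 in HDAC8 libraries, SLC7A11 took 6.01% ± 1.05 and 2.58% ± 0.767, and SLC38A1 took 0.435% ± 0.0895 and 2.69% ± 0.733 (SD, n = 3). SLC7A11 was the more abundant of SLC7A11 and SLC38A1 per kb in the EV libraries, at 3124 against 225 normalized counts per kb. In HDAC8 libraries their means were 1135 and 1187.

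Other genes of amino acid uptake, sensing and use were read from the same fit, as 79 genes in 5 lists. The lists were written from general knowledge, with earlier results of these data known. Of the 71 with an adjusted p, 2 were called higher (2.82%) and 19 lower (26.8%), and the median log2 fold change was -0.22. Over all genes with an adjusted p the shares were 5.57% and 5.44%. At a mean of at least 50 normalized counts, which 70 of the 79 genes had, they were 7.38% and 6.64%. The counts of each list below stand against the same shares. In the response to amino acid shortage, the kinase GCN2 raises translation of ATF4, and ATF4 raises transcription of carriers and synthesis enzymes. The list written for that response had 11 of 19 genes called lower and none higher (median -0.81). What lowered these genes was not tested. ATF4 had 19225.1, 21450.6 and 21041.3 normalized counts in EV and 13087.9, 12295.9 and 11831.5 in HDAC8 libraries (log2 fold change -0.73, SE 0.12, adjusted p = 1.27e-07 by DESeq2). TRIB3, which is induced by ATF4, changed by -1.77 and CTH, the enzyme that makes cysteine from cystathionine, by -1.62. ATF3, NUPR1, CEBPB, PSAT1, DDIT4, CBS, DDIT3 and PSPH were lower by log2 fold changes between -1.39 and -0.81. Among these PSPH was not called in 4 of the fits that each left out a library. GCN2 itself (EIF2AK4) was not called (log2 fold change 0.19), nor were PHGDH (-0.12) and ASNS (-0.46, DESeq2 adjusted p = 0.0109, under the fold change minimum).

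The mTORC1 sensing list had 1 of 27 genes called higher and 4 lower (median -0.10). RRAGD, a Rag GTPase, changed by -1.03 (DESeq2 adjusted p = 2.57e-07), and SESN2, a leucine sensor that is also an ATF4 target, by -1.23 (DESeq2 adjusted p = 3.81e-06). LAMTOR3 and MLST8 changed by -0.96 and -0.75, and FLCN by 0.63. These 3 calls were each lost in at least 2 of the fits that left out a library. MTOR, RPTOR and RHEB were not called, with log2 fold changes of 0.21, -0.10 and -0.04.

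Genes for the use of glutamine and cystine had 0 of 12 called higher and 1 lower (median -0.26). This was GCLM, the regulatory subunit of glutamate-cysteine ligase, at a log2 fold change of -0.74 (DESeq2 adjusted p = 0.00916), and it was not called without EV 1 or HDAC8 1 (DESeq2 adjusted p = 0.141 and 0.0143, the latter with a log2 fold change of -0.53). Of the other amino acid carriers, 2 of 7 were called lower: MFSD12, a cysteine importer of lysosomes and melanosomes (-0.72, DESeq2 adjusted p = 1.30e-04, and -0.54 without EV 2), and SLC17A7, a vesicular glutamate carrier (-1.89, DESeq2 adjusted p = 9.45e-04). The breakdown of branched-chain amino acids had 1 of 6 genes called in each direction, with BCKDHA at 1.23 and BCKDK, the kinase that inactivates the BCKDHA complex, at -0.60 (DESeq2 adjusted p = 0.00177 and 0.0263). BCKDK was not called in 8 of its 14 alternative fits.

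**Figure D4:**
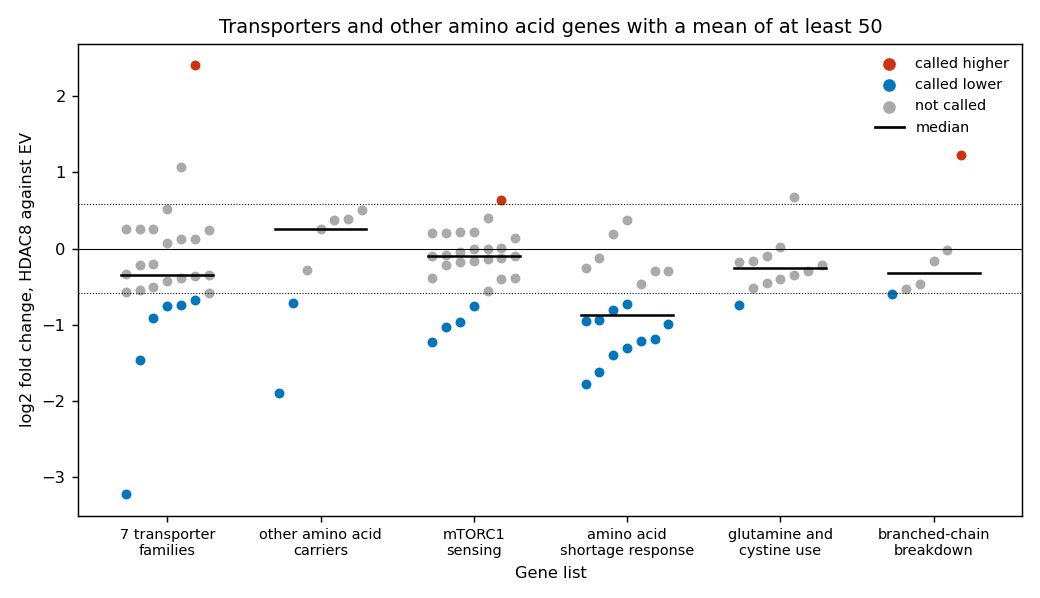
DESeq2 log2 fold change of HDAC8 against EV for the genes of the 7 transporter families and of 5 lists of other amino acid genes with a mean of at least 50 normalized counts, with a point for each gene, medians as bars and dotted lines at 0.58 in either direction. The shortage response list has its median at -0.87, against -0.35 for the transporters, and SLC38A1 stands apart as the only transporter called higher.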

How the data were processed

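The members and gene lists were chosen with earlier results of these data known. Per the study's methods, reads were paired-end, Trimmomatic removed poor sequence, STAR placed them on the transcriptome and RSEM gave the abundance. The table deposited by the authors holds expected counts per gene with no scaling of libraries. The genome build, the annotation and any use of strand are not given in the sources used here. The labels and the methods name different RNA extraction kits. Expected counts were rounded to whole numbers. Positions and canonical transcript lengths came from GENCODE release 44 (GRCh38), by Ensembl identifier (56558 of 60504 genes, all 60 members).

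The comparison of HDAC8 and EV used DESeq2 1.42.0 in R 4.3.3 (Wald test, two-sided, default size factors of 0.918 to 1.17) on 26162 genes that had 10 or more counts in total, and p-values were adjusted by Benjamini-Hochberg over the 21021 genes that received one. Thresholds were those in the study's methods, which name an adjusted p, while legends of the study name an unadjusted one. A floor of 3 counts, 2.57 to 3.27 normalized counts by library, covers counting error only. Intervals are at 95%. Named genes were called genes with a mean of at least 50 normalized counts, 7 carriers with known roles and the 5 most abundant per kb. Other genes given with values, SLC1A4, SLC1A1 and SLC6A6 among them, were singled out after their values had been seen. The 5 amino acid lists and 5 cell type marker lists were described by counts, medians or summed levels, with no test of a list, and 2 listed symbols (SLC66A4 and SAMTOR) had no match. Fits were tested on simulated data that gave both groups the same spread and set no library apart. No pair of libraries in a group agreed within sampling noise (chi-square statistic 27.6 to 168 times its degrees of freedom). HDAC8 1 gave 168 with HDAC8 2 and 112 with HDAC8 3, while HDAC8 2 and HDAC8 3 gave 27.6. Pairs of EV libraries gave 42 to 51.6. Alternatives were edgeR 4.0.16, limma-voom (limma 3.58.1), other size factors, other filters, a replicate block, no mitochondrial genes, no fold change minimum and each library left out in turn. Results for some genes are not reported here.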

Additional observations from a re-analysis of the deposited data

How the results depend on the processing

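The count of members called lower was 3 to 8 and that of members called higher 1 to 2 across the fits that each left out a library, with the low of 3 without EV 2, where SLC7A5 and SLC7A1 passed the p threshold at log2 fold changes of -0.56 and -0.57 and SLC6A9 did not pass it. Members called higher numbered 2 under limma-voom, total-count size factors, at least 10 counts in every library and the replicate block, the added gene being SLC1A1, with DESeq2 adjusted p = 0.0466, 0.0213 and 0.0464 in the latter 3, 0.0469 under limma-voom and 0.00817 without EV 3. Among all genes 877 to 1218 genes were higher and 746 to 1378 lower across the fits that left out a library, the low of 746 without EV 3. For other amino acid genes those ranges were 1 to 2 higher and 15 to 19 lower, and 1 was higher under limma-voom and under the replicate block. HDAC8 itself ran from 0.08 to 0.24 (log2) across all its alternatives and was not called in any. SLC7A11, SLC38A1, SLC6A15 and SLC38A7 were called in all 14 fits. Of 209 values of 15 members, SLC1A4, SLC1A1 and SLC6A6 included, 190 kept direction and call, 5 lost the call and 9, all of those 3 genes, gained it. The 5 that changed direction were never called: SLC1A5 without EV 1 (-0.01) and without HDAC8 1 (-0.00), range -0.01 to 0.36, SLC3A2 without HDAC8 1 (-0.07), range -0.07 to 0.32, and SLC38A9 without EV 1 (-0.12) and without HDAC8 2 (-0.06), range -0.12 to 0.32. For 21 other amino acid genes 267 of 294 values kept both and 27 lost the call. The cause was not tested. Replicate numbers did not pair the libraries (correlations of deviations -0.027, -0.066 and 0.04, with 0 of 6 libraries closest to their own number), and a fit with the numbers as replicate block called 1075 genes in the higher and 1078 in the lower direction, against 1170 and 1143. The members with few counts set the limit of what depth can show, and 11 with an adjusted p had a mean of 6.6 to 47.0 normalized counts.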
